A study of Mus musculus with 12 samples.

Results

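The genes described here are 33 glycolysis and hypoxia response genes, taken by symbol from the 24391 genes of the files: the glucose transporter Slc2a1, the enzymes from hexokinase to lactate dehydrogenase, pyruvate dehydrogenase and its kinases, enzymes of gluconeogenesis, hypoxia-inducible factor (HIF) subunits, the prolyl hydroxylases that control them, and known HIF targets. All 33 were found. The rule names genes by function and uses no measured value, but the members were chosen with earlier results of these data known. RNA was sequenced from scraped colon epithelium of C57BL/6 mice aged 18 weeks, in 12 libraries. The control group, the AOM/DSS group (the carcinogen azoxymethane and the colitis-inducing dextran sulfate sodium) and the AOM/DSS group that also had curcumin, a polyphenol of turmeric, held 4 libraries each, and doses and schedules are not given in the sources used here. The proximal segment and right-sided tumours were cut away before the scraping, so the libraries are of the remaining mucosa. Nothing in the labels says that each library is a separate animal, so p-values measure only the spread between libraries.

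Glycolysis turns glucose into pyruvate in the cytosol. Lactate dehydrogenase reduces that pyruvate to lactate, while pyruvate dehydrogenase carries it into mitochondrial oxidation unless a pyruvate dehydrogenase kinase switches the enzyme off. Prolyl hydroxylases use oxygen to mark HIF alpha subunits for destruction, so at low oxygen HIF persists and switches on glucose transport, most glycolytic enzymes and the kinases. The colon surface borders a lumen with almost no oxygen, and tumours are known for high glycolysis.

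Values are FPKM, reads scaled by the authors to gene length and library depth, so levels can be compared between genes. Differences between groups, given with their standard errors, are of log2(FPKM + 1), so those of low genes come out too small, and they were tested with limma over 12052 genes, with an adjusted p below 0.05 as the threshold. Reads assigned to genes, recovered from steps in the FPKM, numbered 5567988 to 15968416 per library. The samples were checked with marker genes, and of those high enough to be tested none passed the threshold in any comparison. Only 3 of 7 fibroblast markers and 2 of 7 endothelial ones were tested. The summed FPKM of 8 epithelial markers was 5837 to 10325, against 1.93 to 24.1 for 7 fibroblast markers. Markers of B and plasma cells summed to 95.5 to 216, of macrophages and dendritic cells to 4.18 to 56.8, and of T and NK cells to 3.999 to 21.3. Markers of the distal colon summed to 182 to 501, and 8 markers of small intestine enterocytes to 108 to 612. By their lean towards genes rich in GC or in AT, the libraries split into 5 called GC-rich (control replicate 0 and replicates 0 and 1 of both treated groups) and 7 called AT-rich. Every difference from control within the GC-rich libraries, here and below, thus rests on 1 control library. The libraries are of bulk RNA, in which fewer cells of a type and less RNA per cell cannot be told apart.

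The levels placed the later steps of glycolysis among the most abundant transcripts of the colon epithelium. Gapdh, which oxidises glyceraldehyde phosphate, was the highest of the 33 genes, with a mean of 928 FPKM over the 12 libraries. Ldha, the main lactate dehydrogenase subunit, followed at 774 FPKM, and Aldoa, the aldolase that splits the hexose, at 745 FPKM. The pyruvate kinase Pkm and the triose phosphate isomerase Tpi1 came next, at 631 and 428 FPKM. These genes lay between the 98.4 and 99.5 percentile of the tested genes. Neighbours in this order overlapped: Ldha ranged from 635 to 1072 FPKM over the libraries and Aldoa from 620.1 to 991. At the other end stood Ldhb, the heart-type lactate dehydrogenase subunit, at 4.13 FPKM, the regulatory kinase Pfkfb3 at 1.11 and the fructose bisphosphatase Fbp1 at 0.842. Fbp1 was the 1 gene that missed the filter on low values (at least 1 FPKM in 4 or more of the libraries), so 32 of 33 were tested. The spread within groups also differed widely among the genes. Egln1, a prolyl hydroxylase, had the smallest pooled SD within groups, 0.058 on the log2(FPKM + 1) scale, and Ldhb the largest, 0.65.

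**Figure D1:**
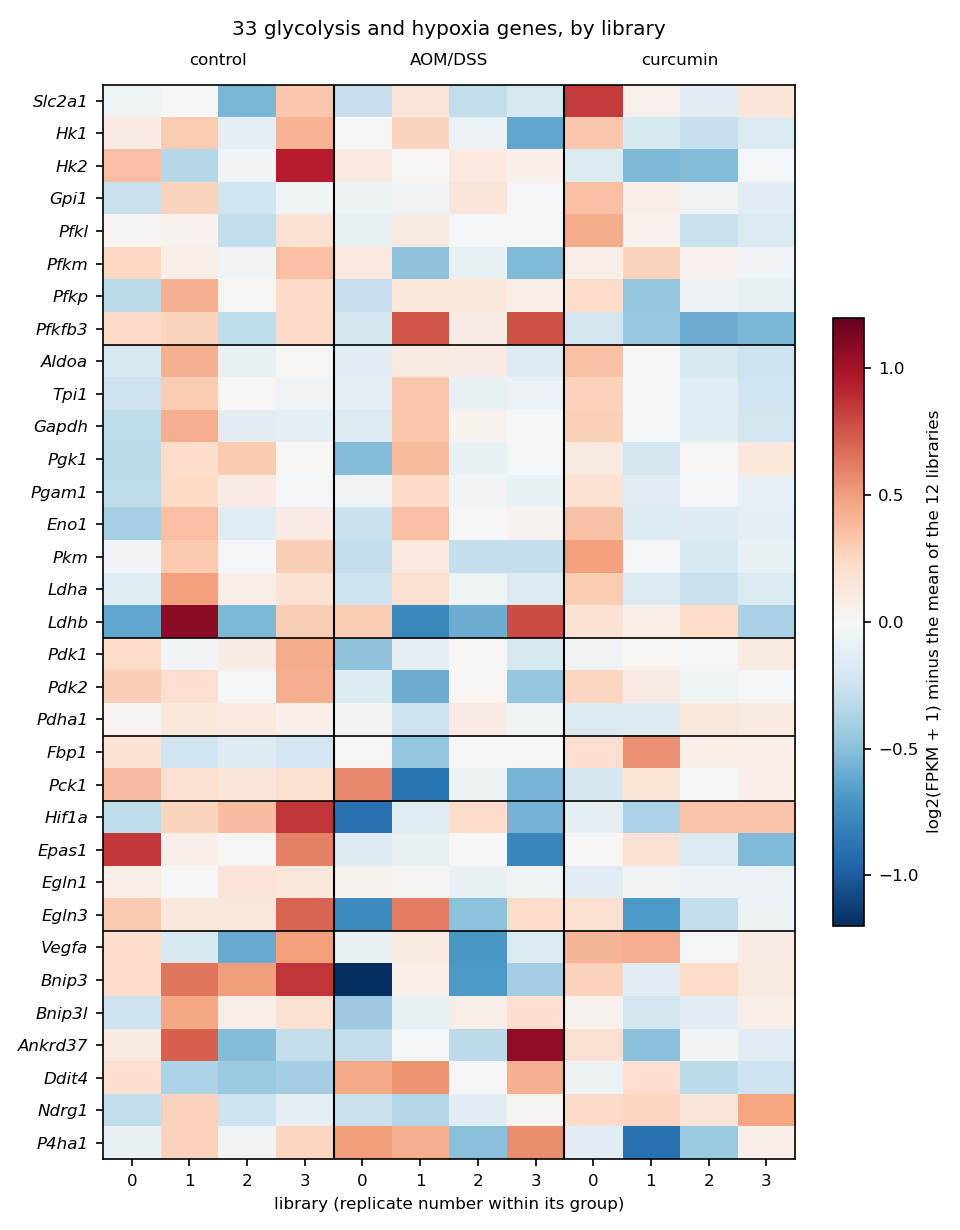
Heat map of the 33 genes (rows, in order of role) in the 12 libraries (columns, replicate number within each group); colour is log2(FPKM + 1) minus the gene's mean over the 12 libraries. Bnip3 is dark blue in AOM/DSS replicate 0 (10.0 FPKM) and pale to blue in the other AOM/DSS libraries, while the rows from Aldoa to Ldha are red in control replicate 1, AOM/DSS replicate 1 and curcumin replicate 0.

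The first question is what the carcinogen and colitis did to these genes, in AOM/DSS against control. None of the 32 tested genes passed the threshold in limma, in a comparison where 1.27% of all tested genes did (153 genes). At an unadjusted p below 0.05 there were 7 genes, or 21.9%, against 13.5% of all genes. Differences were negative for 6 of them, Pfkm, Pdk1, Pdk2, Hif1a, Epas1 and Bnip3, which is 18.8% against 7.15% of all genes, and positive for 1, Ddit4, 3.12% against 6.31%. The groups did not overlap for 2 genes, Epas1 and Bnip3, which is 6.25% against 6.02% of all genes. The median difference of the 32 genes was -0.12, against 0.015 over all tested genes, with 23 below 0 and 9 above. That median was -0.013 in the GC-rich libraries alone, -0.17 in the AT-rich ones, -0.067 without control replicate 1 and -0.080 without control replicate 3. With voom, limma's method for counts, run on the recovered reads, 1 gene passed, which was Bnip3.

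Curcumin added to AOM/DSS, compared with AOM/DSS, asks which of these genes the compound moved. Again none passed, against 1.08% of all tested genes (130 genes), and voom called none. There were 6 genes at an unadjusted p below 0.05, or 18.8% against 14.5% of all genes. Differences were positive for 3, Pdk2, Bnip3 and Ndrg1, against 7.59% of all genes, and negative for 3, Pfkfb3, Ddit4 and P4ha1, against 6.86%, each 9.38% of the tested members. Groups did not overlap for Hk2, Pfkfb3 and Ndrg1, 3 genes or 9.38% against 9.22% of all genes. The median difference was 0.024, against -0.0054 over all tested genes, and it was below 0 without AOM/DSS replicate 0 (-0.025) or curcumin replicate 0 (-0.040), in the AT-rich libraries alone (-0.025) and after scaling to a common sum (-0.041) or by quantiles (-0.032). This comparison shares the 4 AOM/DSS libraries with the one before it, so opposite signs in both are not independent.

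Curcumin against control shows where the genes stood after both treatments. None passed, against 0.141% of all tested genes (17 genes), and voom called none. At an unadjusted p below 0.05 there were 4 genes, or 12.5% against 12.2%. Ndrg1 had a positive difference, 3.12% against 5.87% of all genes, and Hk2, Pfkfb3 and Epas1 had negative ones, 9.38% against 6.31%. Only Egln1 had no overlap between the groups, 3.12% of the genes against 8.26% of all tested genes. The median difference was -0.12, against 0.014 over all genes. That median was 0.11 in the GC-rich libraries alone and -0.24 in the AT-rich ones, -0.071 without control replicate 1 or curcumin replicate 1, and -0.077 without control replicate 3.

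**Figure D2:**
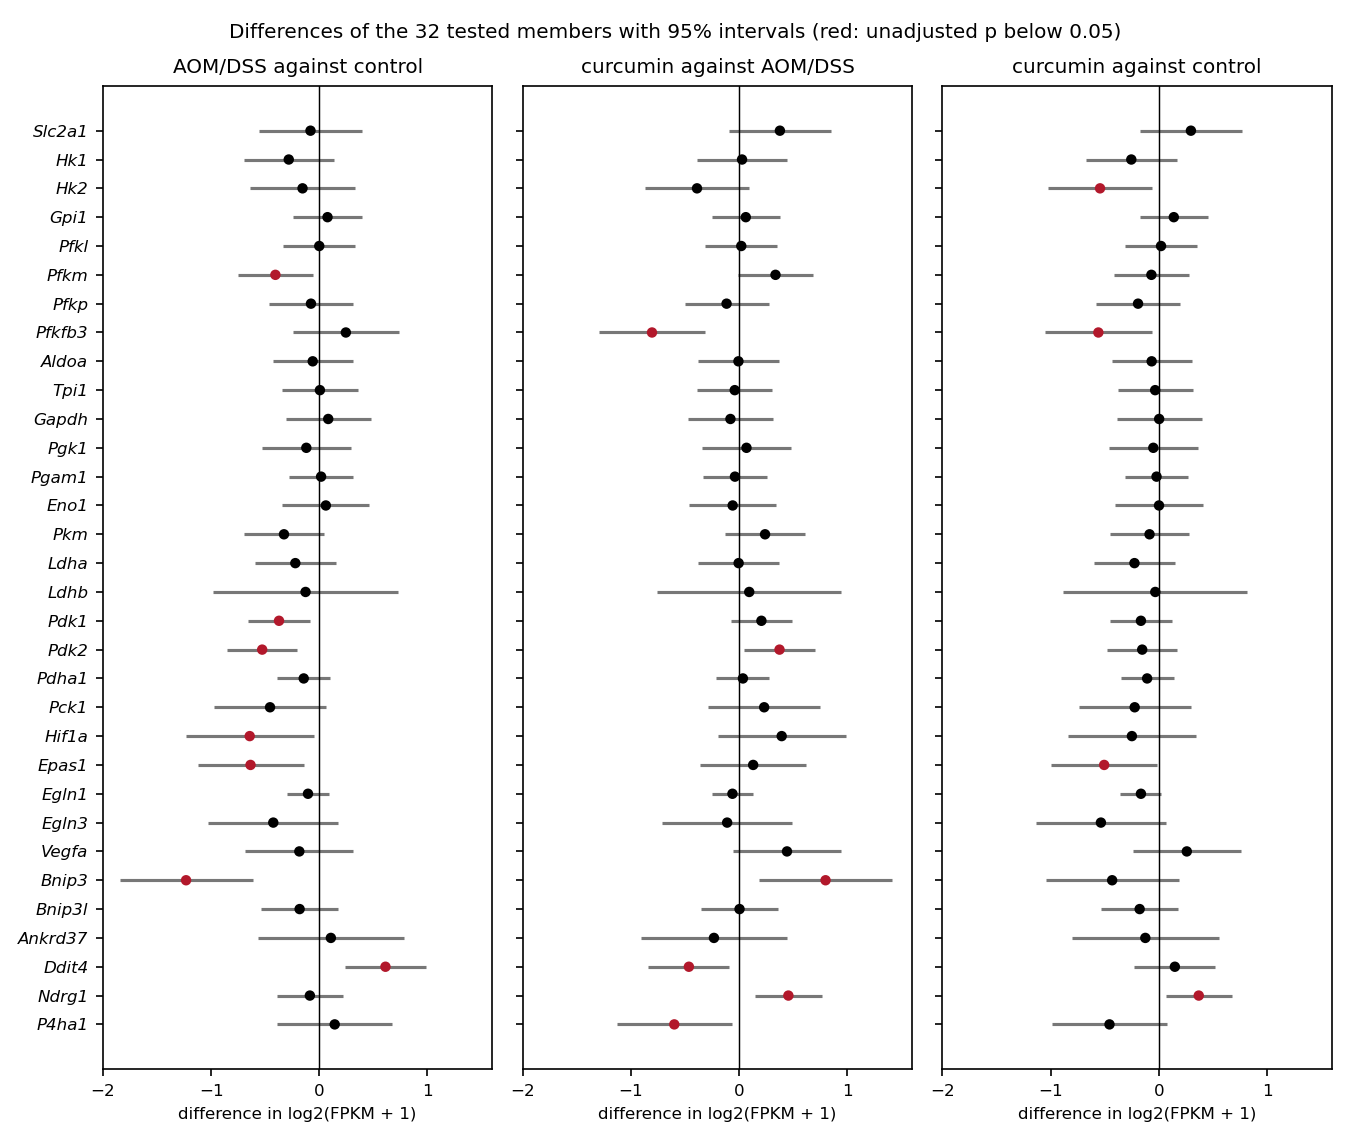
Differences between groups for the 32 tested genes (rows) in the 3 comparisons (panels), on the log2(FPKM + 1) scale with 95% intervals from limma; red points have an unadjusted p below 0.05. Bnip3 lies farthest to the left for AOM/DSS against control (-1.23), the rows from Aldoa to Eno1 lie between -0.12 and 0.08 in all panels, and Pkm reaches -0.33 for AOM/DSS against control.

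The first steps bring glucose into the cell and trap it as hexose phosphate. Slc2a1, the basal glucose transporter, had means of 81.0 ± 19.5 FPKM in control, 75.4 ± 11.7 in AOM/DSS and 101 ± 33.4 with curcumin (mean ± SD, n = 4, here and below). Its highest value was 149.9 FPKM in curcumin replicate 0, and the groups overlapped in every comparison. Gpi1, which isomerises glucose phosphate to fructose phosphate, had means of 284, 297 and 312 FPKM, with differences from 0.06 to 0.14 in size between the groups.

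Hexokinase was made mostly of Hk1, the enzyme of nearly all tissues, with Hk2, the HIF-inducible one, second. Hk1 was at 71.6, 82.8, 61.9 and 89.3 FPKM in control replicates 0 to 3, at 67.0, 80.6, 63.7 and 43.1 in AOM/DSS and at 83.5, 58.8, 55.1 and 59.1 with curcumin. Hk2 was at 43.9, 26.5, 33.1 and 66.0 FPKM in control, at 36.9, 34.3, 36.7 and 35.4 in AOM/DSS and at 30.1, 23.0, 23.3 and 33.5 with curcumin. Control was wide for Hk2, AOM/DSS very narrow, and all 4 curcumin libraries lay below all 4 AOM/DSS libraries. The difference of Hk2 between curcumin and AOM/DSS was -0.39 ± 0.22 (adjusted p = 0.462) and between curcumin and control -0.54 ± 0.22 (adjusted p = 0.352), and neither passed. Hk2 held 34.9 ± 7.75% of the summed FPKM of both hexokinases in control, 36.8 ± 6.30% in AOM/DSS and 30.1 ± 4.22% with curcumin, shares whose ranges overlapped.

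Phosphofructokinase, the committing step of glycolysis, was shared almost evenly by the liver-type Pfkl and the platelet-type Pfkp. Pfkl was at 79.0, 79.6, 62.8 and 87.9 FPKM in control, 72.4, 83.0, 75.8 and 76.1 in AOM/DSS and 105, 80.1, 63.9 and 68.2 with curcumin. Pfkp was at 60.9, 103, 76.9 and 89.5 FPKM in control, 62.7, 83.6, 83.1 and 79.7 in AOM/DSS and 88.6, 54.7, 72.4 and 71.4 with curcumin. In 5.58% of its exon bases Pfkp overlaps Pitrm1 on the opposite strand, and whether the counting used strand is not stated. For both genes the groups overlapped throughout, and the differences lay between -0.19 and 0.02.

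The muscle-type Pfkm was the minor form. It was at 6.12, 5.29, 4.82 and 6.73 FPKM in control, 5.51, 3.29, 4.63 and 3.16 in AOM/DSS and 5.36, 6.24, 5.203 and 4.82 with curcumin. AOM/DSS replicates 1 and 3 were the lowest of all libraries, while replicate 0 lay within the control range. The differences were -0.41 ± 0.16 for AOM/DSS against control (adjusted p = 0.276) and 0.34 ± 0.16 for curcumin against AOM/DSS (adjusted p = 0.356). Pfkm made up 3.499 ± 0.572%, 2.67 ± 0.930% and 3.53 ± 0.723% of the summed FPKM of the 3 genes in control, AOM/DSS and curcumin.

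Pfkfb3 makes the fructose bisphosphate that activates phosphofructokinase, and it is a HIF target in many cell types. It was at 1.36, 1.42, 0.624 and 1.36 FPKM in control, 0.752, 2.38, 1.138 and 2.41 in AOM/DSS and 0.728, 0.465, 0.329 and 0.376 with curcumin, from 24 to 190 reads per library. All 4 curcumin libraries lay below all 4 AOM/DSS libraries, by a narrow gap, and within AOM/DSS replicates 1 and 3 stood well above replicates 0 and 2. Curcumin differed from AOM/DSS by -0.80 ± 0.23 (adjusted p = 0.122) and from control by -0.56 ± 0.23 (adjusted p = 0.351). The summed FPKM of 6 neutrophil markers in the files was 1.44, 12.5, 4.52 and 10.6 in AOM/DSS replicates 0 to 3, also higher in replicates 1 and 3 than in 0 and 2. It was 0.823, 3.18, 1.96 and 1.55 in control, where its lowest library was not that of Pfkfb3, and 1.38 to 1.70 with curcumin, within the control range. Among the 6 markers, Elane was at 0 in every library. Their part in the values of Pfkfb3 was not tested.

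From aldolase to lactate dehydrogenase the median difference was close to 0 in every comparison. The 9 genes had a median difference of -0.061 for AOM/DSS against control, from -0.33 to 0.083. For curcumin against AOM/DSS the median was -0.0060, from -0.080 to 0.24, and against control -0.034, from -0.23 to 0.0026. None of the 9 had groups apart from each other, and their 95% intervals for AOM/DSS against control reached from -0.98 to 0.72, both set by Ldhb. A p above the threshold does not show that the groups are alike, and for Gapdh the interval was -0.31 to 0.48, for Aldoa -0.43 to 0.31 and for Pgam1, the phosphoglycerate mutase, -0.28 to 0.31.

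Gapdh had means of 917 ± 219.5 FPKM in control, 959 ± 140.2 in AOM/DSS and 909 ± 147 with curcumin. Aldoa had 769.6 ± 153, 730.4 ± 71.5 and 735 ± 145 FPKM, and Tpi1 431 ± 69.1, 432 ± 66.9 and 421 ± 68.0. Pgk1 and Pgam1, which follow Gapdh in the pathway, ranged from 265 to 495 and from 165 to 241 FPKM over all libraries. Eno1, the enolase found in most tissues, was at 162, 275, 193 and 229.7 FPKM in control, 179, 275, 215 and 221 in AOM/DSS and 274, 191, 192 and 197 with curcumin, with the same top value near 275 in every group. Pkm, which yields pyruvate, had means of 688 ± 91.5, 549 ± 81.8 and 655 ± 148 FPKM and the most negative difference of the 9 for AOM/DSS against control, -0.33 ± 0.17 (adjusted p = 0.438). Under symbols formed from the gene's own, the annotation has 2 pseudogene copies each for Gapdh, Aldoa, Ldha and Pgam1 and 3 for Pgk1. None of them is in the files. Copies under other names were not counted, for these or for the other genes. The levels are thus uncertain where reads could be shared.

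Ldha was at 692, 1072, 804 and 861 FPKM in control, 643, 870.3, 736 and 675 in AOM/DSS and 942, 677, 635 and 678 with curcumin. Its difference was -0.22 ± 0.17 for AOM/DSS against control (adjusted p = 0.626) and within 0.01 of 0 for curcumin against AOM/DSS. Ldhb, by contrast, was at 2.09, 9.06, 2.25 and 4.81 FPKM in control, 4.84, 1.77, 2.14 and 7.14 in AOM/DSS and 4.34, 4.003, 4.52 and 2.63 with curcumin, from 20 to 139 reads per library. Ldhb thus made up 0.493 ± 0.262%, 0.572 ± 0.397% and 0.535 ± 0.141% of the summed FPKM of both subunits, so that nearly all lactate dehydrogenase transcript of these scrapings was Ldha in every group.

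Within each group 1 library tended to hold the highest values of this stretch. Control replicate 1 was highest for 8 of the 9 genes, AOM/DSS replicate 1 for 8 and curcumin replicate 0 for 7. These 3 libraries also had the highest sums of FPKM over all genes in their groups, 543367, 506370 and 565893. After scaling every library to a common FPKM sum they were still highest for 6, 7 and 6 of the 9 genes. The part of this in the values was not tested further.

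At the branch to the mitochondria, the pyruvate dehydrogenase kinases Pdk1 and Pdk2 had negative differences in AOM/DSS, neither past the threshold. Pdk2 was at 56.1, 52.6, 44.6 and 61.6 FPKM in control, 40.6, 29.6, 46.2 and 32.6 in AOM/DSS and 54.5, 48.6, 43.9 and 45.0 with curcumin. Replicates 0, 1 and 3 of AOM/DSS were below every control library, and replicate 2 lay above 1 of them. Its difference was -0.53 ± 0.15 against control (adjusted p = 0.119), and curcumin differed from AOM/DSS by 0.37 ± 0.15 (adjusted p = 0.271). Pdk1, the HIF-inducible kinase, was at 21.9, 18.2, 19.99 and 25.9 FPKM in control, 13.1, 17.2, 18.97 and 16.2 in AOM/DSS and 18.1, 18.97, 18.4 and 20.2 with curcumin. Here 3 of 4 AOM/DSS libraries lay below every control library, and the difference was -0.37 ± 0.13 (adjusted p = 0.216). Pdk2 held 71.4 ± 2.23%, 69.1 ± 5.30% and 71.6 ± 2.57% of the summed FPKM of Pdk1 and Pdk2 in control, AOM/DSS and curcumin, and these shares overlapped. The other kinases of the family had positive differences against control, which did not pass either. That of Pdk3 was 0.33 ± 0.14 (adjusted p = 0.325), with means of 9.87, 12.5 and 10.5 FPKM. That of Pdk4 was 0.50 ± 0.45 (adjusted p = 0.683), with means of 1.26, 2.25 and 3.20 FPKM, from 6 to 254 reads per library. Pdha1, the catalytic subunit that these kinases inactivate, had means of 115 ± 3.46, 104 ± 10.3 and 107 ± 12.4 FPKM, and it overlaps Map3k15 on the opposite strand in 16.2% of its exon bases.

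Of the gluconeogenic enzymes, Pck1, which turns oxaloacetate into phosphoenolpyruvate, was abundant, at 82.3 ± 6.03 FPKM in control, 64.3 ± 29.8 in AOM/DSS and 70.5 ± 7.54 with curcumin. Its AOM/DSS libraries ran from 37.8 to 105 FPKM, a range that held all the control values of 77.4 to 91.1. Fbp1, the liver-type fructose bisphosphatase, had only 4 to 24 reads per library, at 0.312 to 1.66 FPKM.

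Hif1a, Epas1, Egln1 and Egln3, the HIF subunits and oxygen sensors among the 33 genes, had negative differences in AOM/DSS against control, none past the threshold. Of all 12052 tested genes 5689 lay below 0. The remaining prolyl hydroxylase of the family, Egln2, had a positive difference of 0.25 ± 0.28 (adjusted p = 0.751), with means of 33.2, 39.8 and 39.1 FPKM. The median of the 4 genes was -0.53, and for curcumin against control it was -0.38. Hif1a, the alpha subunit of the first HIF described, was at 41.9, 62.9, 67.5 and 95.2 FPKM in control, 27.5, 46.9, 60.9 and 34.9 in AOM/DSS and 48.3, 39.8, 66.1 and 66.1 with curcumin. The ranges of all 3 groups overlapped, with the highest value in control replicate 3 and the lowest in AOM/DSS replicate 0. The difference from control was -0.64 ± 0.27 in AOM/DSS (adjusted p = 0.322), and curcumin differed from AOM/DSS by 0.39 ± 0.27 (adjusted p = 0.559). HIF alpha subunits are controlled mainly through protein stability, which these data do not measure.

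Epas1 encodes the other main HIF alpha subunit, abundant in endothelium and also made by gut epithelium. It was at 86.0, 49.4, 47.7 and 72.5 FPKM in control, 42.5, 44.6, 47.3 and 27.2 in AOM/DSS and 47.8, 53.6, 42.3 and 32.5 with curcumin. All 4 AOM/DSS libraries lay below all 4 control libraries, by less than 1 FPKM between the nearest pair, and the curcumin libraries spanned that gap. Its difference was -0.64 ± 0.23 for AOM/DSS against control (adjusted p = 0.224), 0.13 ± 0.23 for curcumin against AOM/DSS (adjusted p = 0.857) and -0.51 ± 0.23 for curcumin against control (adjusted p = 0.396). The summed FPKM of 7 endothelial markers was 9.43, 4.67, 6.82 and 6.03 in control, 4.41, 2.48, 4.77 and 7.57 in AOM/DSS and 4.74 to 5.89 with curcumin. In control it was highest in replicate 0, as Epas1 was, but in AOM/DSS it was highest in replicate 3, where Epas1 was lowest. Their part in the values of Epas1 was not tested.

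Egln1, the main oxygen-sensing prolyl hydroxylase, was the steadiest of the genes. It was at 26.9, 25.6, 28.5 and 28.2 FPKM in control, 26.4, 26.2, 24.2 and 24.6 in AOM/DSS and 23.3, 25.0, 24.4 and 24.3 with curcumin. The curcumin libraries all lay below the control libraries, a difference of -0.17 ± 0.09 (adjusted p = 0.468). Egln3, a hydroxylase that is itself a HIF target, had means of 67.6 ± 13.3, 53.2 ± 23.5 and 46.8 ± 11.9 FPKM, with AOM/DSS spread from 30.9 to 82.0 and no difference that passed.

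Among the 7 HIF targets that lie outside glycolysis, 2 stood farthest from control in AOM/DSS, in opposite directions. Bnip3, a mitochondrial protein that promotes mitophagy, was at 39.6, 53.9, 48.6 and 62.8 FPKM in control replicates 0 to 3. It was at 10.0, 35.6, 20.7 and 25.5 FPKM in AOM/DSS and at 41.6, 31.2, 40.01 and 36.9 with curcumin. All 4 AOM/DSS libraries lay below all 4 control libraries, and 3 of the 4 also below every curcumin library. Its difference in AOM/DSS against control was -1.23 ± 0.28, with a 95% interval of -1.85 to -0.62 and an adjusted p of 0.0539, just short of the threshold. The call turned with the processing, and Bnip3 passed in only 3 of 24 alternatives. In those the adjusted p was 0.0499 with a filter of 5 FPKM, 0.042 with voom on recovered reads and 0.020 without AOM/DSS replicate 1. Over the 12 fits without 1 library it reached 0.187, and with the GC group of the libraries as a covariate it was 0.0611. Within the GC-rich libraries alone, with 1 control library, the difference was -1.01. Within the AT-rich libraries alone it was -1.22, not past the threshold. Curcumin differed from AOM/DSS by 0.80 ± 0.28 (adjusted p = 0.212) and from control by -0.43 ± 0.28 (adjusted p = 0.569).

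Bnip3l, the closest relative of Bnip3 and also a mitophagy receptor, showed no such gap between the groups. It was at 42.8, 70.7, 53.7 and 57.8 FPKM in control, 37.5, 47.9, 53.5 and 58.5 in AOM/DSS and 52.4, 43.5, 46.6 and 53.6 with curcumin, with a difference of -0.18 ± 0.17 for AOM/DSS against control (adjusted p = 0.685). Bnip3 made up 48.0, 43.3, 47.5 and 52.1% of the summed FPKM of the pair in control, 21.1, 42.6, 27.9 and 30.4% in AOM/DSS and 44.2, 41.8, 46.2 and 40.8% with curcumin. The AOM/DSS shares were all below the control shares, although replicate 1 came within 1 percentage point of them. The difference between the changes of both genes was not tested. The annotation also has 1 pseudogene copy named after Bnip3l, not in the files, so the level of Bnip3l is uncertain where reads could be shared.

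Ddit4, an inhibitor of mTOR signalling that hypoxia, glucocorticoids and other stresses induce, had the largest positive difference against control of the 7 targets. It was at 43.8, 29.2, 27.7 and 28.4 FPKM in control, 52.5, 55.6, 38.1 and 51.4 in AOM/DSS and 36.3, 43.7, 30.4 and 31.8 with curcumin. Control replicate 0 stood above the other control libraries and above the lowest AOM/DSS library, so the groups overlapped. Its difference was 0.61 ± 0.17 in AOM/DSS against control (adjusted p = 0.117) and -0.46 ± 0.17 for curcumin against AOM/DSS (adjusted p = 0.231). With the GC group of the libraries as a covariate it was 0.51 against control and passed (adjusted p = 0.0434), the only 1 of 24 alternatives in which it did. In the 12 fits without 1 library the adjusted p reached 0.342, and 0 of them passed. Within the GC-rich libraries alone, with 1 control library, the difference was 0.30. Within the AT-rich libraries alone it was 0.62, not past the threshold.

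The promoters of these 2 genes are shown because both are known HIF targets and had differences of opposite sign. HIF binds a core of ACGTG or GCGTG letters. Each sequence is the 250 bases before the annotated start, from RefSeq on the build GRCm38.p6, matched by symbol since the files use mm9, and capitals mark ACGTG on either strand. Bnip3 lies at chr7:138909507-138909756 and Ddit4 at chr10:59951771-59952020, both on the minus strand, and each sequence is written 5′ to 3′ on that strand.
Bnip3: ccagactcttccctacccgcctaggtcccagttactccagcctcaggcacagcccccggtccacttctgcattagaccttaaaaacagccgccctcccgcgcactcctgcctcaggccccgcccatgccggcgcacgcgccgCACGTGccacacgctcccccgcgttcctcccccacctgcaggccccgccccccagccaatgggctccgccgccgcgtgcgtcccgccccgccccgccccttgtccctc
Ddit4: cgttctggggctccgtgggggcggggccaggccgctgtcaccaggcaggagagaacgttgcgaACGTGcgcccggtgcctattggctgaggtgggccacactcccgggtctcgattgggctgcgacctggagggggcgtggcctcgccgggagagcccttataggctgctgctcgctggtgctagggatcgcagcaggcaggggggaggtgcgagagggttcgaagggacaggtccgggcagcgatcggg
In Bnip3 the letters lie at -108 on one strand and -107 on the other, counted from the start, since CACGTG reads the same both ways. In Ddit4 they lie at -187. The other core, GCGTG on either strand, is left in lower case, with 3 matches in Bnip3 and 1 in Ddit4. Of the 33 genes 30 had a promoter in the table, and 15 of the 30 held ACGTG on either strand, or 50%. The share was 16.6% of all 27025 promoters and 22.3% of the 8991 promoters of tested genes. GCGTG was in 14 of the 30 (46.7%), close to the 45.9% of the promoters of tested genes, and CACGTG, which contains ACGTG, was in 5. A match of letters is a description of the sequence and not a bound site.

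Ndrg1, a growth-arrest protein of differentiated epithelium that hypoxia induces, had its highest values with curcumin. It was at 60.3, 90.3, 62.5 and 69.1 FPKM in control, 61.6, 58.1, 67.8 and 75.9 in AOM/DSS and 87.1, 88.9, 82.4 and 104 with curcumin. All 4 curcumin libraries lay above all 4 AOM/DSS libraries, and control replicate 1 reached into the curcumin range. The difference was 0.46 ± 0.14 against AOM/DSS (adjusted p = 0.158) and 0.37 ± 0.14 against control (adjusted p = 0.328), so neither passed.

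P4ha1, a prolyl hydroxylase of collagen synthesis, was at 6.87, 9.06, 7.04 and 8.94 FPKM in control, 10.7, 10.2, 4.85 and 11.2 in AOM/DSS and 6.61, 3.47, 5.08 and 7.64 with curcumin. AOM/DSS replicate 2 was far below the other 3 libraries of its group, which were the highest of all 12. Curcumin differed from AOM/DSS by -0.60 ± 0.25 (adjusted p = 0.281). Vegfa, the angiogenic growth factor that is the best known HIF target, had means of 10.1 ± 3.59, 8.60 ± 2.104 and 11.9 ± 1.96 FPKM, and its difference between curcumin and AOM/DSS was 0.44 ± 0.23 (adjusted p = 0.408). Ankrd37, an ankyrin-repeat protein, had means of 18.2 ± 7.59, 20.3 ± 11.1 and 15.9 ± 3.25 FPKM. It overlaps Lrp2bp on the opposite strand in 22.7% of its exon bases, so its level is uncertain. The 7 targets had differences of both signs, 3 positive and 4 negative in AOM/DSS against control and 4 positive and 3 negative in curcumin against AOM/DSS.

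**Figure D3:**
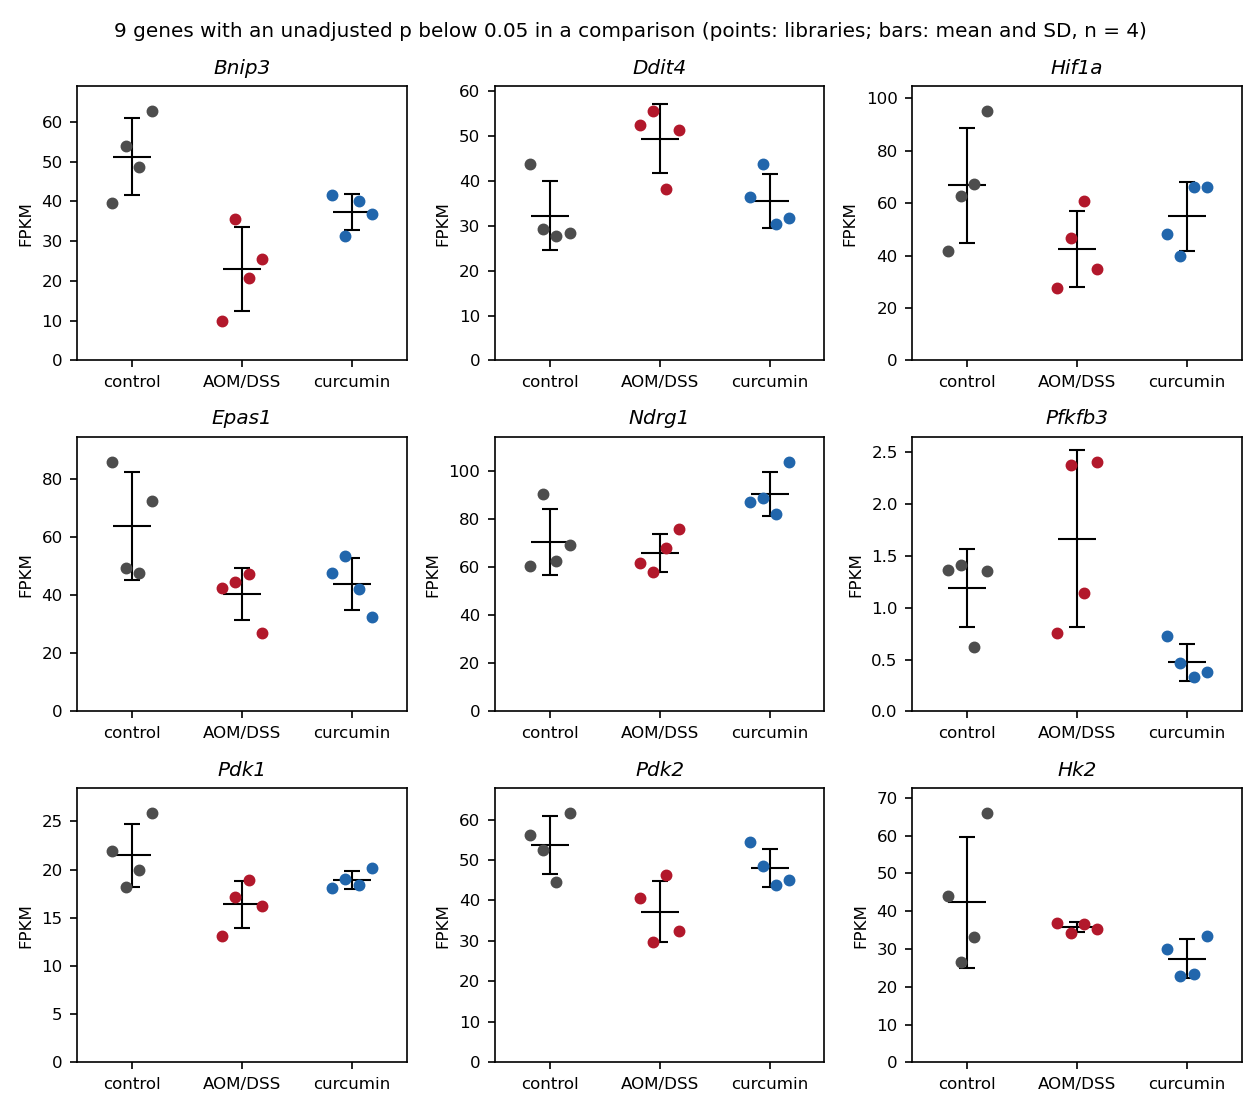
FPKM of 9 genes with an unadjusted p below 0.05 in at least 1 comparison, by group; points are libraries in order of replicate number, and bars are the mean and SD (n = 4). Pfkm and P4ha1 also had such a p and are not shown. The Bnip3 points of AOM/DSS (10.0 to 35.6) sit below those of control (39.6 to 62.8), Ndrg1 of curcumin (82.4 to 104) above AOM/DSS, and Pfkfb3 of curcumin (0.329 to 0.728) below AOM/DSS.

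The rest of the pathway was followed in 92 further genes, of which 73 were tested. Their lists were chosen with earlier results of these data known, so the shares that follow only describe these genes. In AOM/DSS against control 3 of the 73 passed the threshold, 4.11% against 1.27% of all genes, and in curcumin against AOM/DSS 2 passed, 2.74% against 1.08%. None passed in curcumin against control, and voom called none. An unadjusted p below 0.05 was reached by 15 of the 73 in AOM/DSS against control, 20.5% against 13.5% of all genes. In curcumin against AOM/DSS it was 13, or 17.8% against 14.5%, and in curcumin against control 18, or 24.7% against 12.2%. The 3 genes were Eno3, Slc2a5 and Stc2.

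Eno3 is the muscle-type enolase and does the same reaction as Eno1. It was at 234, 243, 243 and 269.7 FPKM in control, 99.7, 179.7, 136 and 82.5 in AOM/DSS and 328, 245, 256 and 223 with curcumin. Every AOM/DSS library lay below every library of the other groups. Eno3 fell by 1.05 ± 0.21 in AOM/DSS against control (limma, adjusted p = 0.0314) and rose by 1.12 ± 0.21 with curcumin against AOM/DSS (adjusted p = 0.0209). It made up 59.1, 46.9, 55.7 and 53.99% of the summed enolase FPKM in control, 35.7, 39.5, 38.8 and 27.2% in AOM/DSS and 54.5, 56.2, 57.1 and 53.1% with curcumin, so the enolase transcripts of AOM/DSS were mostly Eno1 and those of the other groups mostly Eno3, apart from control replicate 1. The fall was lost without any 1 control library, without AOM/DSS replicate 0 or 3 and without curcumin replicate 2, with adjusted p up to 0.116, and the rise without AOM/DSS replicate 0 or curcumin replicates 0, 1 or 2, up to 0.0678. With only the groups compared in the fit neither passed (adjusted p = 0.0919 and 0.0718), and without a filter the fall did not (adjusted p = 0.0574). The difference against control was -0.80 in the GC-rich libraries alone and -1.24 in the AT-rich ones, and that of curcumin against AOM/DSS 1.08 and 1.16, none past the threshold there. Eno3 is best known from muscle. The summed FPKM of 7 smooth muscle markers was 11.2 to 21.3 in control, 13.6 to 26.4 in AOM/DSS and 10.7 to 14.1 with curcumin. Other muscle had no marker list, and the part of muscle in the values of Eno3 was not tested.

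**Figure D4:**
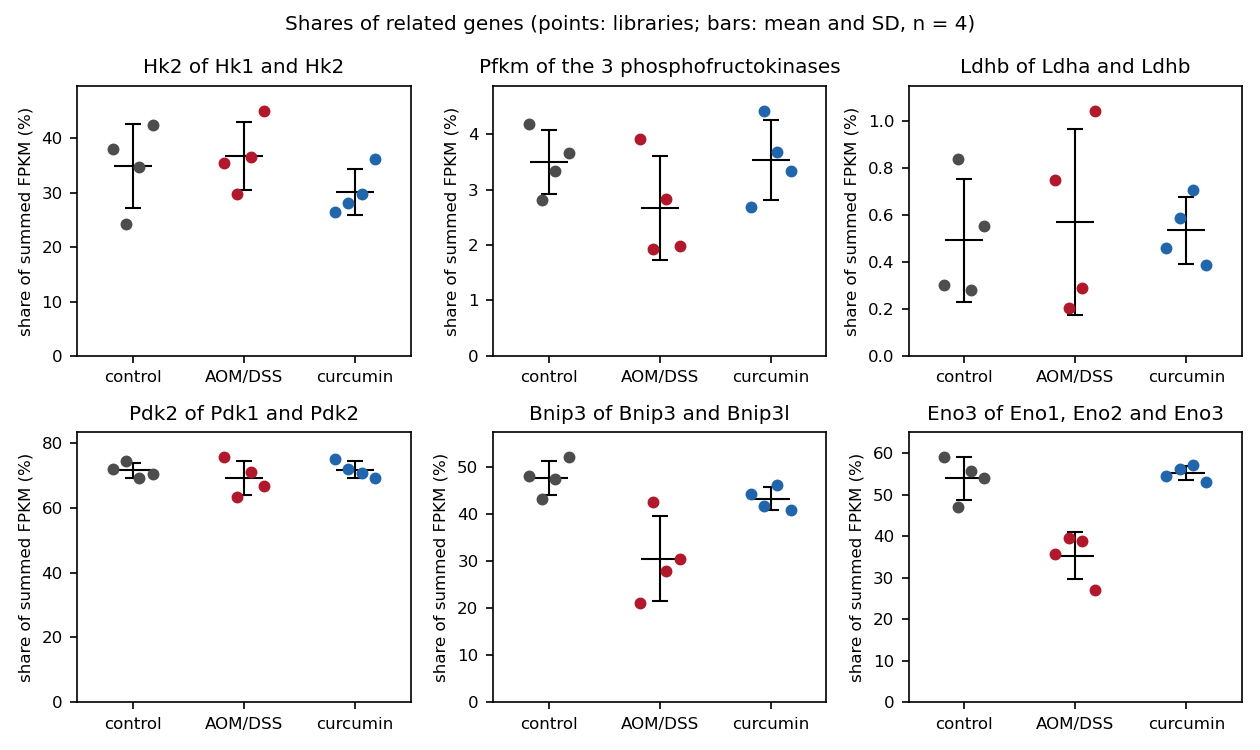
Share (%) that 1 gene held of the summed FPKM of related genes, by group; points are libraries in order of replicate number, and bars are the mean and SD (n = 4). The AOM/DSS shares of Eno3 (27.2% to 39.5%) and of Bnip3 (21.1% to 42.6%) lie below those of control (46.9% to 59.1% and 43.3% to 52.1%), while the shares of Hk2, Pfkm, Ldhb and Pdk2 overlap.

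Slc2a5, the fructose transporter, was low, and its lowest values were also in AOM/DSS. It was at 5.21, 4.83, 3.75 and 6.84 FPKM in control, 1.119, 1.56, 0.451 and 2.68 in AOM/DSS and 4.62, 4.23, 4.41 and 5.39 with curcumin, from 16 to 277 reads. Every AOM/DSS library was again below all the others. Slc2a5 fell by 1.38 ± 0.24 against control (limma, adjusted p = 0.0143) and rose by 1.28 ± 0.24 with curcumin against AOM/DSS (adjusted p = 0.0221). The fall was lost without control replicate 3 (adjusted p = 0.0615), and the rise without AOM/DSS replicate 0 or any 1 curcumin library, with adjusted p up to 0.0686. With only the groups compared in the fit neither passed (adjusted p = 0.0711 and 0.0564), and without a filter the rise did not (adjusted p = 0.0538). The difference against control was -1.41 in the GC-rich libraries alone and -1.38 in the AT-rich ones, and that of curcumin against AOM/DSS 1.22 and 1.35, none past the threshold there.

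Stc2, a secreted glycoprotein and HIF target, was at 4.01, 4.83, 3.20 and 4.53 FPKM in control, 7.67, 8.42, 9.09 and 8.89 in AOM/DSS and 12.5, 5.94, 6.16 and 9.24 with curcumin. All AOM/DSS and all curcumin libraries lay above all control libraries. It rose by 0.90 ± 0.19 in AOM/DSS against control (limma, adjusted p = 0.0457), and with curcumin the difference from control was 0.83 ± 0.19 (adjusted p = 0.114). The call was lost in 10 of the 12 fits without 1 library, kept only without curcumin replicate 0 or 1, with adjusted p up to 0.116. It was lost as well with quantile scaling (adjusted p = 0.0548) and without a filter (adjusted p = 0.0851). The difference against control was 0.85 in the GC-rich libraries alone and 0.96 in the AT-rich ones, neither past the threshold there.

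**Figure D5:**
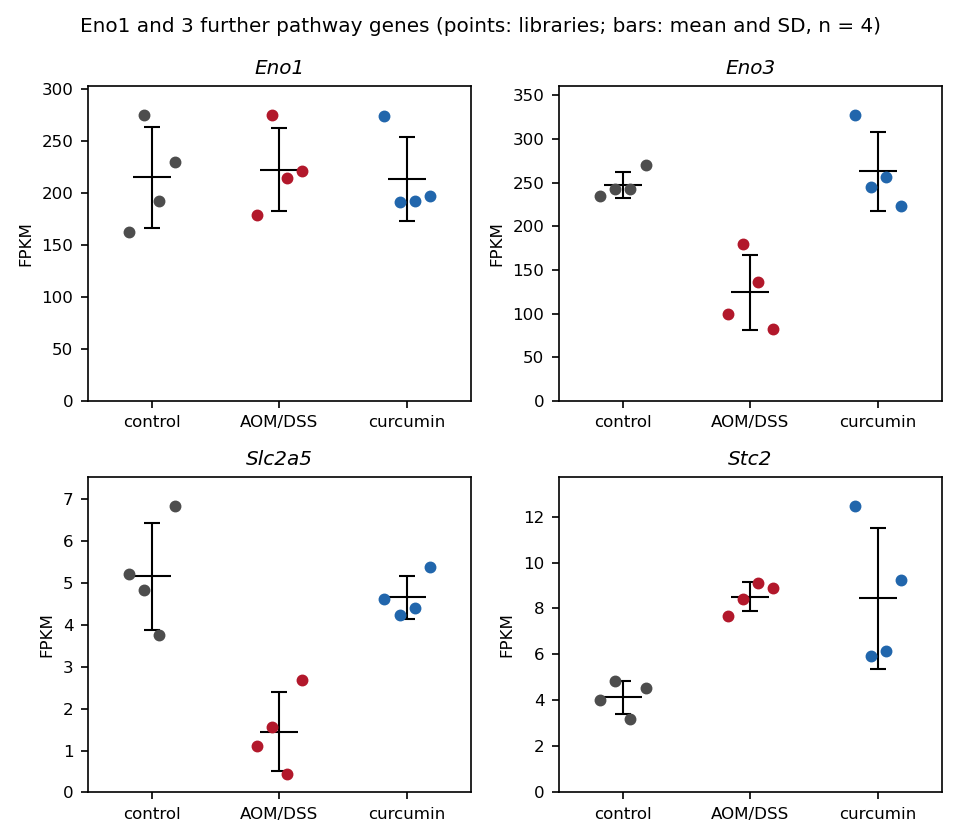
FPKM of Eno1 and of the 3 further pathway genes that passed the threshold, by group; points are libraries in order of replicate number, and bars are the mean and SD (n = 4). Eno1 overlaps in all groups (162 to 275), whereas Eno3 and Slc2a5 of AOM/DSS (82.5 to 179.7 and 0.451 to 2.68) lie below both other groups and Stc2 of control (3.20 to 4.83) below both treated groups.

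In the lists with no call, the 2 most abundant genes show the levels. The mitochondrial pyruvate carrier subunits Mpc1 and Mpc2 stood beside the pyruvate dehydrogenase genes, of which none of 10 tested passed. Mpc1 had means of 153 ± 26.4, 116 ± 12.1 and 149.6 ± 8.68 FPKM and a difference of -0.38 ± 0.14 for AOM/DSS against control (adjusted p = 0.241). Mpc2 had means of 96.8, 87.9 and 95.6 FPKM. In gluconeogenesis none of 5 tested passed, and Fbp2, the muscle-type fructose bisphosphatase, was at 163 ± 37.2, 148 ± 11.2 and 172 ± 13.4 FPKM, so fructose bisphosphatase transcript was nearly all Fbp2 and not Fbp1. Pcx, pyruvate carboxylase, had means of 49.8, 36.9 and 44.5 FPKM. Of the other 10 tested genes that act on HIF none passed either, and the ubiquitin ligase components Tceb2 and Rbx1, which act with the HIF destruction factor Vhl, ranged from 118 to 329 and from 31.1 to 53.2 FPKM.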

How the data were processed

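Expression was given in the 12 deposited files as FPKM computed by the authors, 1 file per library. Per the submitters' processing notes, the build was mm9 and the tools were featureCounts 1.5.1, TopHat2 2.1.1, Bowtie2 2.2.6, and also Picard, R 3.4.0 and DESeq2 1.14.1. Their roles, the annotation and the use of strand are not given in the sources used here. The FPKM of all 19233 genes above 0 could be written as whole multiples of 1 read within a tolerance of 0.001, which gave the reads used here. A gene above 0 in only 1 library meets this whatever its value. With few libraries above 0 it is met nearly always, so the reads of such genes are uncertain.

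The groups and replicate numbers came from the labels. The test was limma 3.58.1 (R 4.3.3) on log2(FPKM + 1), in 1 model of the 3 groups with 9 residual degrees of freedom, an intensity trend and Benjamini-Hochberg adjustment over 12052 genes, those that reached 1 FPKM in 4 or more libraries. The fit was tested on simulated data. GC content and exon overlap came from GENCODE annotation of a later build, by symbol, with GC content for 99.3% of tested genes.

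The members, lists and tests were chosen with earlier results of these data known. Values in every library were given for members with an unadjusted p below 0.05 and no overlap between the groups, and for related enzymes. Among the other pathway genes, those past the threshold were named, or the 2 most abundant of a list with none. Values in every library of Ddit4, Hif1a, P4ha1, Egln1 and Eno1, the values of Pdk3, Pdk4 and Egln2, the share of Eno3, the promoters printed and the genes under other observations were chosen after values were seen. Alternatives changed the pseudocount to 0.1, the filter to none or 5 FPKM, the scaling, the trend, the libraries fitted and the method (voom on recovered reads), or added the replicate number as a block or the GC group.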

Additional observations from a re-analysis of the deposited data

Results flagged for a closer look

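In 12 of 108 sets of 4 libraries (1 gene in 1 group) the gap between the extreme library and its nearest neighbour was a larger part of the range than Dixon's 95% critical value for 4 samples, which chance passes in about 1 in 20 sets. AOM/DSS replicate 1 was apart in 4 of them, upward for Tpi1 (532 FPKM, others 394 to 405), Pgam1 (239.5, others 193 to 199.95) and Pkm (672, others 505 to 510.3) and downward for Fbp1 (0.312, others 0.815 to 0.827). Curcumin replicate 0 was apart upward for Hk1 (83.5 FPKM, others 55.1 to 59.1), Eno1 (274, others 191 to 197) and Ldha (942, others 635 to 678). AOM/DSS replicate 2 was apart upward for Gpi1 (328 FPKM, others 284 to 290.2) and downward for P4ha1 (4.85, others 10.2 to 11.2). AOM/DSS replicate 3 was apart upward for Ankrd37 (36.7 FPKM, others 13.6 to 17.0). In control, replicate 0 was apart upward for Ddit4 (43.8 FPKM, others 27.7 to 29.2) and replicate 2 downward for Pfkfb3 (0.624, others 1.36 to 1.42).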

How the results depend on the processing

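Among the 32 tested members and Eno3, Slc2a5 and Stc2, no difference that was called, or became called, changed sign under the alternatives. For the other further pathway genes the alternatives gave only counts of calls. The number of members called in AOM/DSS against control was 0, and 1 with the 5 FPKM filter, with voom and with the GC group as covariate, and 0 to 1 without 1 library. It was 0 in both other comparisons under all alternatives. The median difference of the members ranged from -0.17 to -0.013 in AOM/DSS against control, from -0.041 to 0.11 in curcumin against AOM/DSS and from -0.24 to 0.11 in curcumin against control, while scaling to a common sum or by quantiles moved the median of all genes to at most 0.062 in size.

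Over all genes, AOM/DSS against control gave 153 calls, but 54 with only the groups compared, 238 with the GC covariate, 7 in GC-rich and 4 in AT-rich libraries alone, and 53 to 201 without 1 library. Curcumin against AOM/DSS gave 130, but 85 with only the groups compared, 272 with the GC covariate, 8 and 1 in GC-rich and AT-rich libraries alone, and 48 to 149 without 1 library. Curcumin against control gave 17, but 11 with a pseudocount of 0.1, 7 without a filter, 27 with voom, 40 with the GC covariate, 0 in GC-rich and 0 in AT-rich libraries alone, and 4 to 35 without 1 library. The further pathway genes called in AOM/DSS against control numbered 3, but 1 without a filter, 1 with only the groups compared, 6 with the GC covariate, 0 in GC-rich and 0 in AT-rich libraries alone, and 0 to 3 without 1 library. In curcumin against AOM/DSS they numbered 2, but 1 without a filter, 1 with the 5 FPKM filter, 0 with only the groups compared, 0 in GC-rich and 0 in AT-rich libraries alone, and 0 to 2 without 1 library. The 5 FPKM filter left Slc2a5 untested, since too few libraries reached 5 FPKM for it. Without a filter, the fall of Eno3 had an adjusted p of 0.0574, the rise of Slc2a5 0.0538 and the rise of Stc2 0.0851. The alternatives with fewer libraries have fewer degrees of freedom, and otherwise the cause was not tested.

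The replicate numbers 0 to 3 were shared by the groups without a stated meaning, and same-numbered libraries had deviations correlated from -0.33 to 0.46 across genes. With the replicate number as a block the calls over all genes were 82, 86 and 2 in the 3 comparisons, and the further pathway genes called in AOM/DSS against control were 1, with 0 members called. Under the block the fall of Eno3 had an adjusted p of 0.0626 and the rise of Stc2 0.0726. Depth limited Fbp1, Ldhb, Pfkfb3 and Slc2a5, with 4 to 24, 20 to 139, 24 to 190 and 16 to 277 reads per library. It also limited Pgam2 and Pdk4, with 7 to 39 and 6 to 254 reads.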

Other observations

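Groups did not overlap for 8 of the 73 further pathway genes in AOM/DSS against control, or 10.96% against 6.02% of all genes. In curcumin against AOM/DSS it was 11, or 15.1% against 9.22%, and in curcumin against control 9, or 12.3% against 8.26%. These counts include Eno3, Slc2a5 and Stc2, and the lists were chosen with earlier results of these data known. Of the rest, none of which passed the threshold, Selenbp1, Slc37a4, Pgam2 and Bpgm are given as values. The others, not described here, were Bhlhe40, Pfkfb4, Gapdhs, Mpc1, Ero1l, Ak4, Pck2, Hif1an, Car9, P4hb, Angptl4 and Narf. Selenbp1, a selenium-binding protein of the mature colon surface, ranged from 1055 to 1426 FPKM in control, 588 to 910.5 in AOM/DSS and 1009 to 1487 with curcumin. Its difference was -0.65 ± 0.17 for AOM/DSS against control (limma, adjusted p = 0.0901) and 0.63 ± 0.17 for curcumin against AOM/DSS (adjusted p = 0.111). Slc37a4, the transporter of glucose phosphate into the endoplasmic reticulum, ranged from 20.7 to 24.4, 15.1 to 19.2 and 21.2 to 23.2 FPKM in the same order, with differences of -0.40 (adjusted p = 0.0841) and 0.34 (adjusted p = 0.149).

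The muscle-type phosphoglycerate mutase Pgam2 had its highest values in AOM/DSS, with 1.11 to 1.82 FPKM in control, 2.47 to 2.98 in AOM/DSS and 1.65 to 2.39 with curcumin. The difference of Pgam2 was 0.60 ± 0.13 for AOM/DSS against control (adjusted p = 0.0512), from only 7 to 39 reads per library. Bpgm, bisphosphoglycerate mutase, ranged from 16.6 to 29.9, 30.5 to 41.0 and 23.0 to 29.7 FPKM, with a difference of 0.67 ± 0.16 for AOM/DSS against control (adjusted p = 0.066). Bpgm is best known from red blood cells, whose 6 markers summed to 59.3 to 327 FPKM in control, 18.0 to 326 in AOM/DSS and 26.5 to 37.7 with curcumin, and their part in its values was not tested.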
